A study of Mus musculus with 13 samples.

Results

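The HoxC cluster carried the broadest called H3K27me3 domain of mouse embryonic fibroblasts that expressed either K27M mutant of histone H3. Its members were set by position, with earlier results of these data known. They are every peak of the 2 deposited H3K27me3 lists that overlapped chr15:102700000-102900000 (mm9), the stretch from Hoxc13 to Hoxc4. This gave 1 of the 1053 peaks called with H3.1K27M and 1 of the 1192 peaks called with H3.3K27M. The cluster holds 9 protein-coding Hox genes, Hoxc4, Hoxc5, Hoxc6, Hoxc8, Hoxc9, Hoxc10, Hoxc11, Hoxc12 and Hoxc13.

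The study profiled 13 chromatin immunoprecipitation samples of mouse embryonic fibroblasts that carried lentiviral constructs for stable expression of mutant H3 or, for controls, are labelled empty. The 2 groups used here are cells expressing H3.1K27M and cells expressing H3.3K27M, each precipitated with an antibody to H3K27me3, and in each mutant lysine 27 is replaced by methionine. H3.1 is the replication-coupled form of the histone and H3.3 the replication-independent form. The labels list 2 replicates per group but name 1 peak list for both, and whether their reads were pooled is not stated, so there is no spread between replicates and no test of any difference below. Samples of K27R and empty control cells, and those precipitated for EZH2 or FLAG, were not used here, so no level in cells without a K27M mutant stands beside these values. The lists hold positions only, so the labelled cell type could not be checked against marker genes, and neither depth nor peak height is known. A deeper library or a looser threshold gives wider peaks from the same chromatin, and its part in the width differences below was not tested.

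Hox genes encode homeodomain transcription factors that set the identity of body segments along the head-to-tail axis. They lie in 4 clusters in mammals, and their order along the chromosome follows the order in which they are used along the body. Genes that a cell does not use are held silent by Polycomb: PRC2, with its catalytic subunit EZH2, places H3K27me3, and the mark can spread because PRC2 binds it and is stimulated by it. Fibroblasts keep a Hox pattern that reflects the part of the body they came from, and parts of Hox clusters are among the broadest H3K27me3 domains known. Methionine in place of lysine 27 makes the mutant histone an inhibitor of PRC2.

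In the RefSeq gene table (GRCm38.p6, used for order only) all 9 members matched and ran from Hoxc13 through Hoxc12, Hoxc11, Hoxc10, Hoxc9, Hoxc8, Hoxc6 and Hoxc5 to Hoxc4 with rising coordinate. Hoxc13, at 1 end, is needed for hair and nail formation. Hoxc10 and Hoxc11 act in the lumbar and sacral trunk and the hindlimb. Hoxc8 and Hoxc9 act in the thorax. Hoxc4, Hoxc5 and Hoxc6, at the other end, act in the neck and upper thorax. The table places 5 further genes among them, of which 3 are long noncoding RNAs and 2 are microRNAs. Hotair, a long noncoding RNA studied for its links to PRC2, lies between Hoxc12 and Hoxc11, Gm36878 lies between Hoxc9 and Hoxc8, and Gm29905 lies between Hoxc8 and Hoxc6. Mir196a-2 lies between Hoxc10 and Hoxc9, and Mir615 stands between Hoxc5 and Hoxc4 in the order of starts.

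The microRNAs are shown because they are part of the Hox clusters themselves and those of the miR-196 family are known to act on Hox messenger RNAs. The sequences are from RefSeq (GRCm38.p6), 5′ to 3′, with the seed (bases 2 to 8) in capitals. The first line is made from Mir196a-2 in HoxC and is also the product of Mir196a-1 on chromosome 11. The second comes from Mir196b on chromosome 6 and has the same seed as the first. No other mature microRNA among the 1679 in the table has that seed. The last 3 lines come from HoxC genes, and each of their seeds belongs to 1 mature microRNA of the table.
miR-196a-5p: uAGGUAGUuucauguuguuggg
miR-196b-5p: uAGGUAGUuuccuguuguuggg
miR-196a-2-3p: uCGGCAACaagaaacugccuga
miR-615-5p: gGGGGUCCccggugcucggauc
miR-615-3p: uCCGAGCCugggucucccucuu

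Among the 9 members, 1 matched a RefSeq promoter, Hoxc4; Hoxc5, Hoxc6, Hoxc8, Hoxc9, Hoxc10, Hoxc11, Hoxc12 and Hoxc13 had no entry. The Hoxc4 promoter is shown because Hoxc4 closes the cluster on the side where most of the uncalled sequence of the window lay. It runs from 250 bases before to 50 after the gene's start (GRCm38.p6, plus strand, chr15:103034145-103034444, a position that cannot be set against the mm9 peaks). CpG dinucleotides, a sequence feature tied to PRC2 recruitment in mammals, are in capitals.
Hoxc4 promoter: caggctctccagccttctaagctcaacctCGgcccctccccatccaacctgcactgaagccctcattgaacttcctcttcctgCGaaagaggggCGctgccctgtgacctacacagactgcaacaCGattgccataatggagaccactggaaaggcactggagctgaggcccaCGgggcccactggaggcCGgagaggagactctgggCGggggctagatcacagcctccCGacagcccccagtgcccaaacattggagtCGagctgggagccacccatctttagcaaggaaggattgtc

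This stretch held 9 CpG in 300 bases, against a median of 7 over the 32851 promoters of the table, and 54.2% of those promoters held fewer. Its GC content was 60.3% against a median of 52.7%, and 71.4% of the promoters had a lower GC content. The letters TAAT, the core of many homeodomain binding sites, occurred 1 time when both strands were searched, and 58.0% of all promoters held at least 1 such match. The Hoxc4 promoter was therefore near the middle of all promoters in CpG count and above the median in GC content.

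In H3.1K27M cells H3K27me3 was called over HoxC as 1 peak from 102735201 to 102817399 on chromosome 15 (mm9), 82.2 kb wide. In H3.3K27M cells it was called as 1 peak from 102726001 to 102828399, 102.4 kb wide. Each list thus gave a single interval with no break, though whether its caller bridged gaps inside it is unknown. The whole H3.1K27M peak lay inside the H3.3K27M peak, and the sequence in common made up 80.3% of the sequence covered by either.

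**Figure D1:**
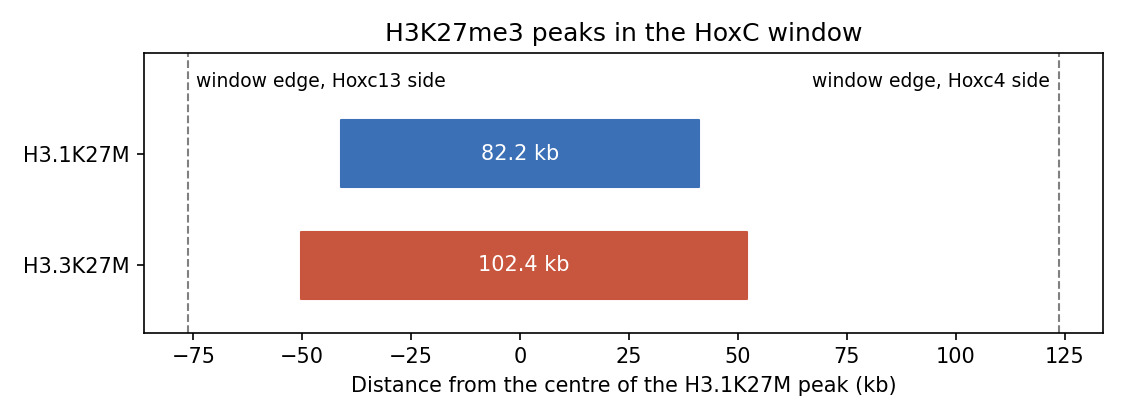
H3K27me3 peaks in the HoxC window, by distance in kb from the centre of the H3.1K27M peak; bars are called peaks with their widths, and dashed lines are the edges of the 200 kb window. The 102.4 kb H3.3K27M peak reaches past the 82.2 kb H3.1K27M peak at both ends, and the longer uncalled stretch in both lists is on the Hoxc4 side.

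The domain did not fill the window, and the uncalled sequence was unequal on its 2 sides. On the Hoxc13 side 35.2 kb of the window was uncalled with H3.1K27M and 26.0 kb with H3.3K27M. On the Hoxc4 side 82.6 kb was uncalled with H3.1K27M and 71.6 kb with H3.3K27M. The centre of the peak was shifted from the centre of the window toward Hoxc13 by 23.7 kb with H3.1K27M and by 22.8 kb with H3.3K27M. The window has rounded bounds that need not match the ends of the outermost genes, and no mm9 gene table was used here, so the edges were not assigned to single Hoxc genes. An uncalled stretch shows that no peak passed the caller's threshold there, not that the mark was absent.

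The 2 mutants placed the domain around nearly the same centre, and the H3.3K27M peak ended further out on both sides. Its edge lay 9.2 kb beyond the H3.1K27M edge on the Hoxc13 side and 11.0 kb beyond it on the Hoxc4 side, so the centres differed by 0.9 kb. In total the H3.3K27M peak was 20.2 kb wider, a ratio of 1.25, or 0.32 on the log2 scale. The Hoxc13 side held 45.5% of this added length.

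Set against all places with exactly 1 peak in each list, the HoxC difference was ordinary as a ratio and among the greatest in kb. There were 807 such regions with HoxC included. The H3.3K27M peak was the wider in 77.7% of them and extended past the H3.1K27M peak on both sides in 61.3%, so the direction at HoxC was that of most regions. The median ratio was 1.25 (quartiles 1.03 and 1.58), and 49.4% of regions had a ratio below that of HoxC. In kb, the HoxC difference of 20.2 was the third-largest, against a median of 1.8. The regions above it, chr10:45185801-45211599 with a difference of 21.4 kb and chr11:23959601-23990799 with 20.8 kb, had H3.1K27M peaks of 4.4 and 10.4 kb.

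**Figure D2:**
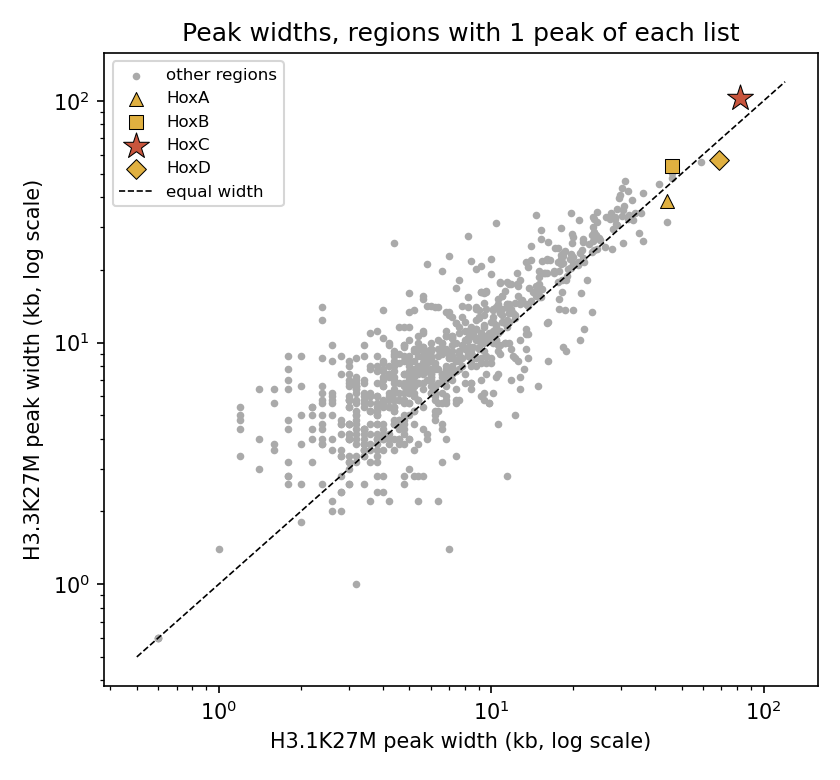
Width of the H3.1K27M peak (x) and of the H3.3K27M peak (y), both in kb on log scales, for the 807 regions with 1 peak of each list; each point is a region and the dashed line marks equal width. HoxC, at 82.2 and 102.4 kb, is the rightmost and topmost point and lies above the line, with HoxB on the same side and HoxA and HoxD below the line.

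By edge, HoxC had the tenth-longest extension of the H3.3K27M peak at the left, or Hoxc13, edge, tied with chr12:57609201-57643799. At the right, or Hoxc4, edge it had the fourth-longest, tied with chr8:59789801-59816599. Over the 807 regions the median extension was 0.8 kb for either edge. When regions were ordered by the smaller of their 2 extensions, an order chosen after the values were seen, HoxC came first with 9.2 kb. Behind it came chr11:23959601-23990799 with 7.0 kb and a region on the X chromosome, from 55266601 to 55294199, with 6.2 kb. At chr10:45185801-45211599, the region with the greatest difference in kb, the extensions were unequal, 19.4 kb on the left and 2.0 kb on the right. In proportion to the H3.1K27M width the HoxC extensions were 11.2% at the left and 13.4% at the right. The medians of these shares were 10.9% and 12.9%, so the relative widening of HoxC at each edge was close to that of the middle region.

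**Figure D3:**
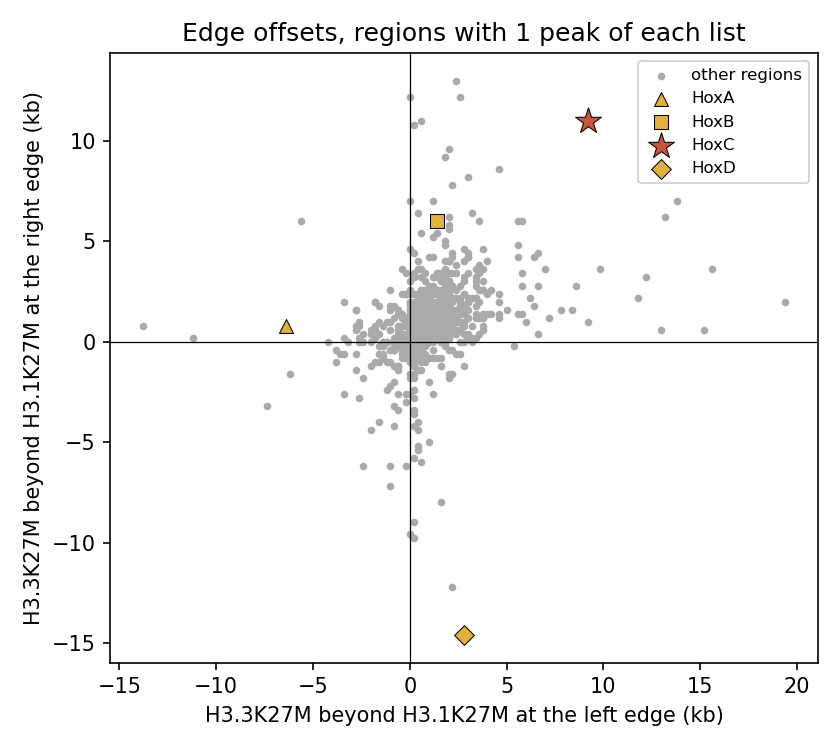
Distance in kb by which the H3.3K27M peak reaches beyond the H3.1K27M peak at the left edge (x) and the right edge (y) in the 807 regions; values below 0 mean that the H3.1K27M peak reaches further. HoxC lies at 9.2 and 11.0 kb, apart from the other regions in the upper right, while HoxD lies at 2.8 and -14.6 kb and HoxA at -6.4 and 0.8 kb.

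Among broad domains the median ratio was lower than among all regions, and HoxC stood higher in their order. In the 229 regions where both peaks were at least 9 kb wide the median ratio was 1.14, and 68.6% had a ratio below that of HoxC. The cut is set on the 2 widths that form the ratio, so it is not independent of it. Regions with 1 narrow peak drop out, such as chr10:45185801-45211599 with 4.4 and 25.8 kb. The lower quartile of the ratio was 1.03 in both sets, and the upper was 1.3 against 1.58 over all regions. The H3.3K27M peak was the wider in 79.9% of these regions and reached further at both edges in 61.1%. In the 10 widest regions with 1 peak of each list, taken by the mean of their log2 widths, the H3.3K27M peak was the wider in 7. Their ratios ran from 0.83 to 1.5 with a median of 1.09, against 1.25 at HoxC. The ratio of 1.5 lay at chr19:43654401-43700799, where peaks of 31 and 46.4 kb differed by 12.2 kb on the left and 3.2 kb on the right.

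Within each list the HoxC peak was the widest of all. In H3.1K27M cells it was 1.19 times as wide as the next peak, of 68.8 kb, and in H3.3K27M cells it was 1.52 times as wide as the next, of 67.4 kb. It was 14.7 times the median peak width of 5.6 kb with H3.1K27M and 14.2 times the median of 7.2 kb with H3.3K27M. HoxC thus stood in nearly the same proportion to the typical peak of either list. It made up 0.94% of the length covered with H3.1K27M and 0.863% of that with H3.3K27M.

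On chromosome 15 this single domain had a large part of all called H3K27me3. Each list had 51 peaks there, and the HoxC peak was 19.7% of their total length with H3.1K27M (417.9 kb in all) and 21.9% with H3.3K27M (467.7 kb in all). The 20.2 kb added at HoxC equalled 40.6% of the net 49.8 kb by which the H3.3K27M list covered more of the chromosome. The net is gains less losses, and some regions were narrower with H3.3K27M, such as chr15:88885601-88900399 with a difference of -8.2 kb. The 40.6% is therefore not a share of all length gained on the chromosome, which is larger than the net. Without HoxC the ratio of covered lengths on chromosome 15 was 1.09 in place of 1.12. The net change of this chromosome was small: over the whole lists the ratio was 1.36, and HoxC equalled 0.647% of a net 3120.5 kb. In the 39 regions of this chromosome with 1 peak of each list the median ratio was 1.1, and the H3.3K27M peak was the wider in 66.7% and reached further at both edges in 46.2%. HoxC had the longest extension of these 39 regions at either edge.

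No other peak of either list lay in the window, but the domain was not more isolated than the typical peak. On the Hoxc13 side the nearest peak was 147.8 kb away with H3.1K27M and 127.8 kb away with H3.3K27M. On the Hoxc4 side the nearest was 548.6 kb away with H3.1K27M and 503.4 kb away with H3.3K27M. The Hoxc13-side neighbour was the nearer one, and its distance was below the median nearest gap of each list. That median was 237.2 kb with H3.1K27M and 291.4 kb with H3.3K27M. A closer neighbour was found for 42.3% of H3.1K27M peaks and 36.1% of H3.3K27M peaks. The running numbers of the HoxC peak and of its neighbours on both sides followed each other without a skip, 329 to 331 in the H3.1K27M list and 399 to 401 in the H3.3K27M list.

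Within 1 Mb of the domain there were 4 other regions, of which 3 were shared and 1 was called in H3.3K27M cells only. In all 3 shared regions the H3.3K27M peak was the wider, as in 77.7% of regions genome-wide and 66.7% on chromosome 15, so this count is near the background. The nearest, chr15:102573201-102598199, had peaks of 14.0 and 25 kb, a ratio of 1.79 against 1.25 at HoxC. Next to it, chr15:102520801-102528799 had 3.8 and 8.0 kb, a ratio of 2.11. On the Hoxc4 side, chr15:103365001-103371599 had 5.0 and 6.6 kb, a ratio of 1.32. This region held the last called peak of chromosome 15 in both lists. The region called in H3.3K27M cells only was 5.6 kb wide, chr15:103331801-103337399.

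Beside the other Hox clusters, HoxC had the most called sequence in both mutants, and the clusters did not share a direction. HoxC covered 82.2 kb with H3.1K27M and 102.4 kb with H3.3K27M. HoxD covered 68.8 and 57.0 kb, a ratio of 0.83. HoxA covered 44.2 and 38.6 kb, a ratio of 0.87. HoxB covered 46.2 kb in 1 peak and 92.2 kb in 2 peaks, a ratio of 2.0. In HoxC and HoxB the whole H3.1K27M domain lay inside H3.3K27M peaks, against 85.5% of it in HoxA and 78.8% in HoxD. Over all 807 regions the H3.3K27M peak reached past both edges in 61.3%. That measure is stricter than inclusion, because regions with an equal edge are not counted in it. At least this share of regions thus had such inclusion, so it does not set HoxC and HoxB apart. The ratio for HoxA depends on the window: with windows 50 kb wider at each side a second peak per list entered, the covered lengths were 61.8 and 63.2 kb, and the ratio was 1.02.

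The clusters also differed in the edges at which the mutants diverged, counting in HoxB the peak that both lists share. At the left edge, the one with the lower coordinate, the H3.3K27M peak lay further out by 9.2 kb in HoxC, 2.8 kb in HoxD and 1.4 kb in HoxB, and the H3.1K27M peak by 6.4 kb in HoxA. Over all 807 regions the H3.3K27M peak lay further out at the left edge in 74.0%. At the right edge the H3.3K27M peak lay further out by 11.0 kb in HoxC, 6.0 kb in HoxB and 0.8 kb in HoxA, and the H3.1K27M peak by 14.6 kb in HoxD. The share over all regions was 74.7% at this edge, so the counts of 3 of 4 clusters at either edge were near the background. With 1 list per mutant these are 4 places in the same pair of lists, and none of the differences has a replicate check.

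**Figure D4:**
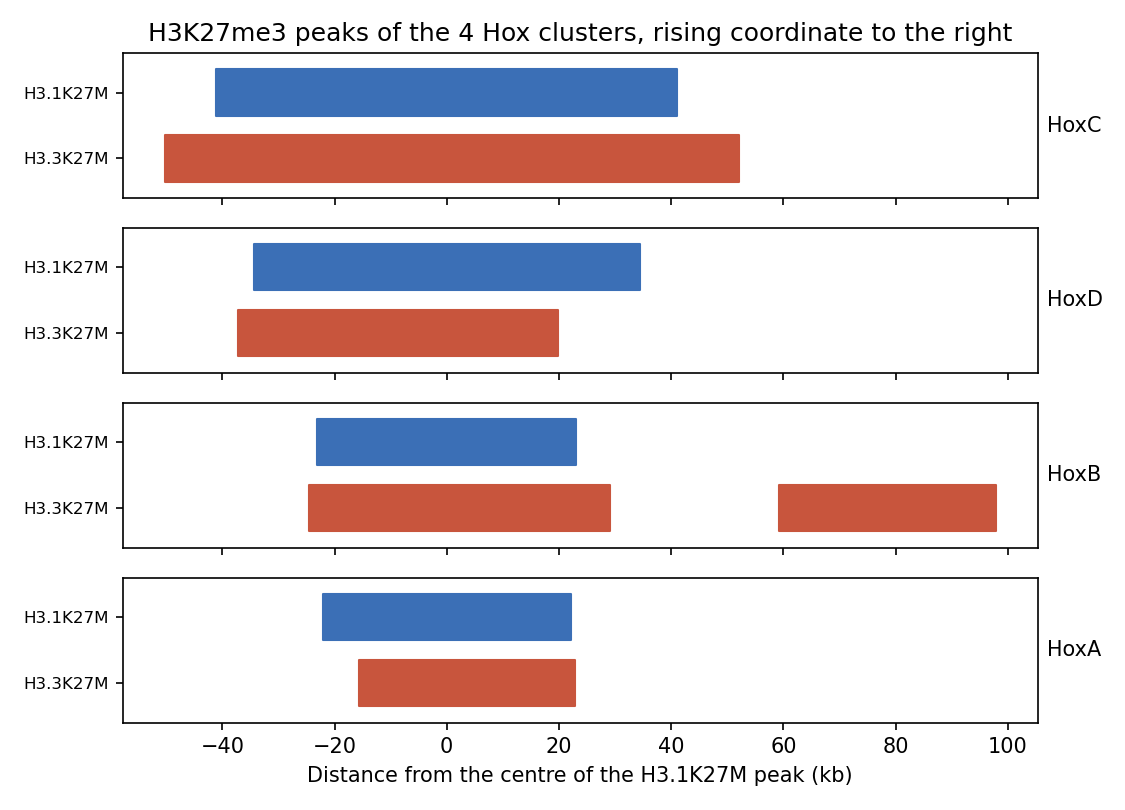
H3K27me3 peaks of the 4 Hox clusters by distance in kb from the centre of each cluster's H3.1K27M peak, with rising coordinate to the right; blue bars are H3.1K27M peaks and red bars H3.3K27M peaks. HoxC has the longest bar in both lists and extends at both ends in H3.3K27M cells, while the H3.3K27M bar of HoxD ends 14.6 kb before its H3.1K27M bar on the right.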

How the data were processed

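H3K27me3 chromatin immunoprecipitation with sequencing was read from 2 peak lists, 1 for each K27M mutant. Fixed chromatin was digested to mononucleosomes before precipitation, per the labels' protocols. Bowtie 1.0.0, deepTools and the build mm9 are named in the submitters' processing notes; the caller and cutoff behind the peaks were not given in the sources used here. Values in the deposited lists are positions and widths in bp on a 200 bp grid, with no height or p-value, and the depth behind them is unknown. Peaks overlapping by at least 1 bp were joined into regions, and widths, edges and ratios were computed with Python 3.11.15, numpy 2.4.6 and pandas 2.3.3; the joining was tested on simulated data. The extent of the other 3 Hox clusters was set as 200 kb windows from general knowledge of mm9. The genes described are the 9 members, the genes RefSeq orders among them, and the other Hox clusters as a whole. Members and comparisons were chosen with earlier results of these data known. No test was run, because each group has 1 list.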

Additional observations from a re-analysis of the deposited data

How the results depend on the processing

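Other settings tried were a window 50 kb wider at each side, lengths clipped to the window, merging of peaks under 5 kb apart, a reciprocal overlap of 50%, broad regions only, and only the wider peaks of a list, from its median width up. None of them, where applied, moved the HoxC covered lengths (82.2 and 102.4 kb), their ratio (1.25), the sequence in common (80.3%) or the rank by width. For the lengths, the ratio and the sequence in common these settings could not have changed the values. Each list has 1 HoxC peak, wholly inside the window and at least 127.8 kb from any other peak of its list. These unchanged values are therefore no check of the result. With only regions of at least 9 kb as the background, the share of regions with a ratio below that of HoxC went from 49.4% to 68.6%, by construction over fewer regions. Windows 50 kb wider turned the HoxA ratio from 0.87 to 1.02, because a second peak of each list entered; the ratios of HoxB, HoxC and HoxD did not move. No paired analysis was possible because 1 list stands for both replicates of a group, and no replicate could be dropped in turn. The unknown depth limits every statement about where a domain ends.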
